A study of Mus musculus with 6 samples.

Results

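Heat shock chaperone genes were followed by symbol in the raw counts: Hspa1a, Hspa1b, Hspa8, Hsph1, Dnajb1, Hsp90aa1, Hsp90ab1, Hspd1 and Hspe1. They are 9 of 37576 counted genes, and each of the 9 was among the 16511 genes with enough reads to be tested. All livers were taken at embryonic day 12.5 from embryos of the C57BL/6 mouse strain. Livers 6, 16 and 19 formed the E861A group and were of genotype Adar1E861A/E861A, homozygous for a point mutation that leaves the RNA editing enzyme ADAR1 without catalytic activity. The wild-type group held livers 2, 15 and 17. RNA was taken with Trizol from whole-liver cell suspensions, and 35280460 to 43733715 reads per library were counted in genes. Sex was partly tied to genotype, since the 3 E861A livers and wild type 2 were male and wild type 15 and 17 were female. The labels do not say whether the embryos shared litters, so p-values measure the spread between these livers. A point mutation leaves the transcript in place, so the level of Adar does not check the labels.

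Cells meet misfolded proteins with the heat shock response, in which the transcription factor HSF1 binds repeated GAA units in promoters, called heat shock elements, and raises chaperone transcription. Hsp70 proteins hold and release unfolded chains in an ATP-driven cycle that Hsp40 partners start and exchange factors reset, and Hsp90 proteins finish the folding of many kinases and receptors. In human red cell precursors, Hsp70 protects the transcription factor GATA1 from cleavage by caspases. The name "cytosolic heat shock chaperones" holds for 7 of the genes. Hspd1 and Hspe1 encode Hsp60 and Hsp10, which form the folding chamber of the mitochondrial matrix, and their results are given apart.

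The inducible Hsp70 genes Hspa1a and Hspa1b rose in E861A livers, 23.3-fold and 13.1-fold in the fitted model, and the other 7 genes did not pass the test. Thus 2 of 9 genes were higher and 0 of 9 lower, against 7.77% of all tested genes called higher and 4.26% called lower. Hspa1a and Hspa1b are near-identical copies with reads of uncertain division, so in counts over the 9 genes they are not independent of each other. The call rested on edgeR's quasi-likelihood test and a Benjamini-Hochberg adjusted p under 0.05, where the adjustment covered every tested gene. Hspa8, Hsp90aa1 and Hsp90ab1, the genes with the highest levels per kilobase, differed between the genotypes by less than their spread. Each of the 3 E861A livers lay above each wild-type liver for Hspa1a, Hspa1b and Hspe1, 3 of 9 genes, against 19.4% of all tested genes. For 0 of 9 genes did each E861A liver lie below each wild-type liver, against 14.5% of all tested genes. The median log2 fold change was 0.05 over the 9 genes and 0.04 over all tested genes.

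**Figure D1:**
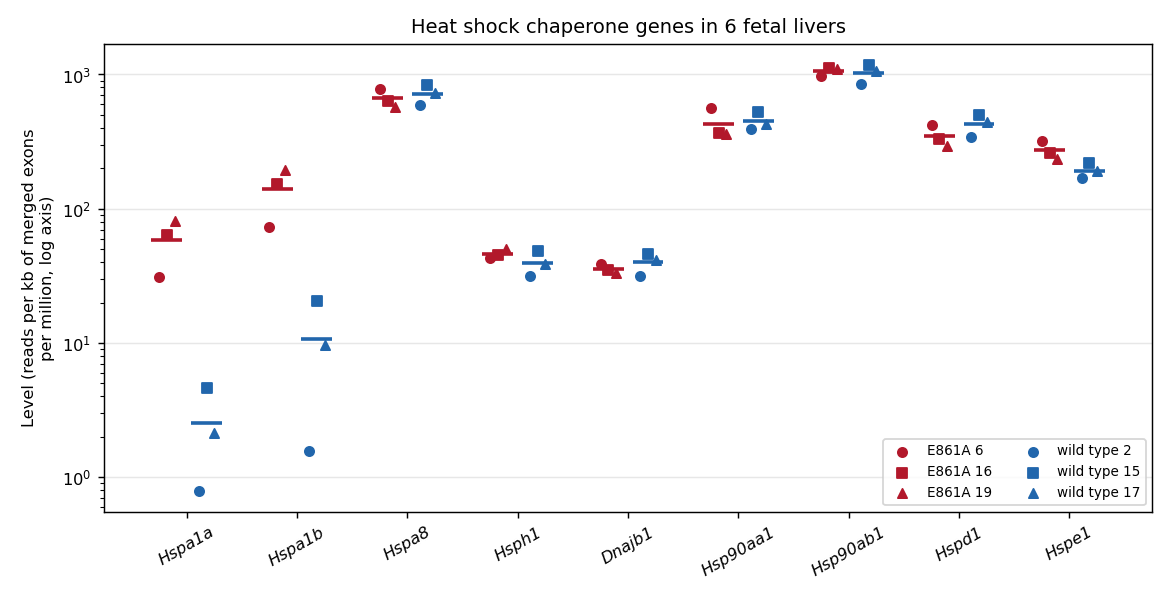
Level of each gene in each liver, in RPKM (reads per kilobase of merged exons and per 1000000 scaled reads, log axis), with E861A livers in red, wild-type livers in blue and a bar at each group mean. Hspa1a and Hspa1b are the pair whose groups lie far apart, with E861A means of 58.7 and 140 against wild-type means of 2.53 and 10.7.

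Hspa1a (ENSMUSG00000091971, NCBIM37 chr17:35106144-35109069, minus strand) and Hspa1b (ENSMUSG00000090877, chr17:35093381-35096183, minus strand) encode nearly the same inducible Hsp70 protein. Their coding sequences were 99.4% identical, and 59.4% of the 50-base words of the Hspa1a transcript also occurred in Hspa1b. How reads were divided between the copies is therefore uncertain, and their sum is the safer measure. Hspa1a also overlaps the predicted gene Gm20481 on the opposite strand over 2213 bases, 552 of them exonic in both. Gm20481 had 0 reads in the 6 libraries together. Whether the libraries kept the strand is not given in the sources used here.

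Both promoters are shown because Hspa1a and Hspa1b moved together. They are the 250 bases before the annotated start, from RefSeq on GRCm38.p6, a later build than the NCBIM37 of the counts, and capitals mark the heat shock element core searched for, GAANNTTC or TTCNNGAA. Hspa1a lies at chr17:34972157-34972406 and Hspa1b at chr17:34959239-34959488, both on the minus strand.
Hspa1a: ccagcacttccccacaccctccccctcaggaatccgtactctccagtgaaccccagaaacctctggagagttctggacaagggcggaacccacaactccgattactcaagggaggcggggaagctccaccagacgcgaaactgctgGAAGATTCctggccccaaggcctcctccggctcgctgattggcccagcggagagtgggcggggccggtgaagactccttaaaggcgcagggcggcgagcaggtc
Hspa1b: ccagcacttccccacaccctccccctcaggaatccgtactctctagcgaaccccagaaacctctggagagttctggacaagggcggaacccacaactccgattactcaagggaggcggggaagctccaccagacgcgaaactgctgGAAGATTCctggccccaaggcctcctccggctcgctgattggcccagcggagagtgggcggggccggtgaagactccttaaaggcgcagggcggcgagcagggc
The windows differed at 3 of 250 positions, counted from 1 at the first base printed and with the Hspa1a base first: C44T, T47C and T249G. Each window held the core GAAGATTC at the same place, starting 104 bases before the annotated start. A pair of units of this kind was present on either strand in 12.8% of 32851 mouse promoter windows of the same length. The interferon-stimulated response element, searched as a pair of GAAA units with NN between them, or TTTC units likewise, was in 0 of the 9 promoter windows held for these genes, against 2.98% of all windows.

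Hspa1a had 90.4, 186 and 239 CPM (counts per 1000000 scaled reads) in E861A 6, 16 and 19, against 2.32, 13.6 and 6.25 CPM in wild type 2, 15 and 17. Its lowest E861A value was 6.63 times its highest wild-type value, so the groups did not overlap. Behind these values stood 3826, 6600 and 10913 reads in the E861A livers and 101, 523 and 236 reads in the wild-type livers. The means were 172 ± 75.2 CPM in E861A and 7.40 ± 5.74 CPM in wild type (SD, n = 3 each). Its log2 fold change was 4.54 (SE 0.69, edgeR adjusted p = 0.008, 95% interval 2.91 to 6.17).

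Hspa1b had 203, 429 and 541 CPM in E861A 6, 16 and 19, against 4.39, 58.0 and 27.3 CPM in wild type 2, 15 and 17. It followed the order of Hspa1a in every liver, with E861A 19 the highest and wild type 2 the lowest. The means were 391 ± 172 CPM in E861A and 29.9 ± 26.9 CPM in wild type (SD, n = 3 each). The log2 fold change was 3.71 (SE 0.87, edgeR adjusted p = 0.0365, 95% interval 1.66 to 5.76).

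Summed into 1 row, the pair had 294, 615 and 780 CPM in E861A 6, 16 and 19, against 6.71, 71.6 and 33.5 CPM in wild type 2, 15 and 17. The log2 fold change of the sum was 3.92 (SE 0.83, edgeR adjusted p = 0.0265). The spread within a genotype was wide, since wild type 15 held 10.7 times the sum of wild type 2 and E861A 19 held 2.65 times that of E861A 6. Livers 2 and 6 were the lowest of their genotypes. Set against each other, E861A 6 held 43.8 times the sum of wild type 2, and E861A 16 and 19 held 8.59 to 23.3 times that of wild type 15 and 17. With a term for livers 2 and 6 the log2 fold changes were 4.68 for Hspa1a and 4.13 for Hspa1b, both past the threshold (edgeR adjusted p = 0.00185 and 0.0091). The labels do not say what the liver numbers mean.

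Wild type 2, the lowest liver for both genes, was also the only male of its genotype. With sex as a covariate the log2 fold changes were 6.21 for Hspa1a and 6.48 for Hspa1b, against 4.54 and 3.71 without it. All 3 E861A livers were male, so for every gene this fit set E861A against wild type 2 alone. It is therefore no separate adjustment for sex. Among male livers alone the log2 fold changes were 6.22 and 6.49, with the same single wild-type liver assumed to vary like the others. Without wild type 17, Hspa1a had a log2 fold change of 4.43 with an edgeR adjusted p of 0.0698. With no filter on low counts the edgeR adjusted p was 0.0583 for Hspa1a, 0.181 for Hspa1b and 0.143 for their sum. Hspa1b was past the threshold in 1 of the 6 fits that each left out a liver, the one without wild type 2, with log2 fold changes of 3.18 to 4.63 and edgeR adjusted p from 0.00836 to 0.184.

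In the authors' deposited table, turned to E861A over wild type, the log2 fold changes were 4.81 for Hspa1a and 4.29 for Hspa1b. The adjusted p-values there were 0.00271 and 0.0167. The authors' deposited table gave 0.51 for Hspe1 with an adjusted p of 0.0887, and none of the remaining 6 genes had an adjusted p under 0.05.

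**Figure D2:**
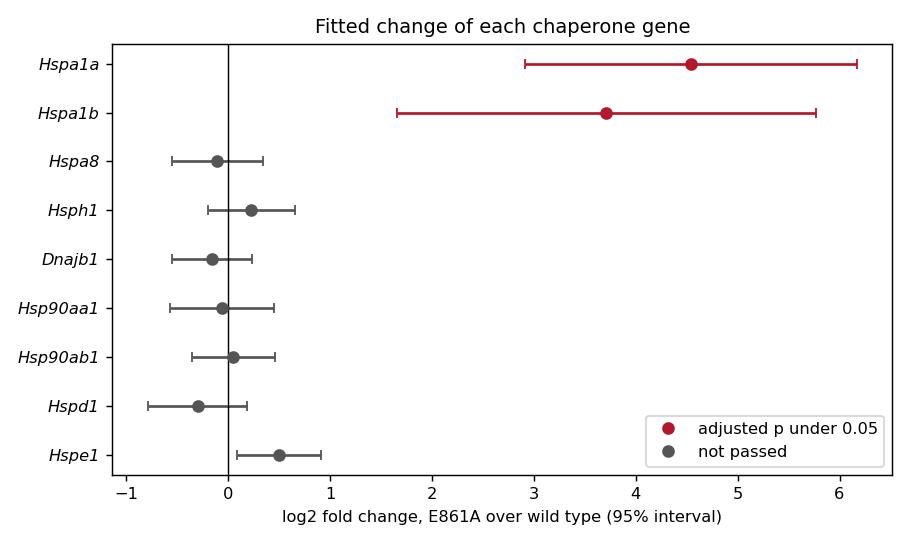
Fitted log2 fold change of each gene, E861A over wild type, with its 95% interval, in red where the adjusted p was under 0.05. Hspa1a at 4.54 and Hspa1b at 3.71 stand clear of 0, and the other genes lie between -0.30 and 0.50.

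Hspa8 (ENSMUSG00000015656, chr9:40609067-40613283, plus strand) encodes Hsc70, the Hsp70 that is made without stress. It had 3263, 2641 and 2391 CPM in E861A 6, 16 and 19, against 2476, 3441 and 3030 CPM in wild type 2, 15 and 17. The groups overlapped, with the highest value in wild type 15 and the lowest in E861A 19. The log2 fold change was -0.11 (SE 0.19, edgeR adjusted p = 0.786), with a 95% interval of -0.56 to 0.34. Hspa8 shared none of its 50-base words with Hspa1a (73.9% coding identity), and it hosts 3 small nucleolar RNA genes of the Snord14 group, which had 0 reads of their own.

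Levels of different genes were compared per kilobase of merged exons, in RPKM. On this scale inducible Hsp70 mRNA made up 11.7%, 25.4% and 32.3% of the summed level of Hspa1a, Hspa1b and Hspa8 in E861A 6, 16 and 19. In wild type 2, 15 and 17 it made up 0.395%, 2.97% and 1.60%. The share was higher in each E861A liver than in any wild-type liver. Its size depends on the exon lengths used. The merged exons of Hspa8 cover 4156 bases, nearly the whole gene, against a coding sequence of 1941 bases. A shorter length for Hspa8 would raise its level and the summed level, and lower these shares in each liver. The summed Hsp70 level itself was 864 ± 21.8 RPKM in E861A and 731 ± 128 RPKM in wild type (SD, n = 3 each), and these groups overlapped, since wild type 15 at 853 RPKM lay within the E861A range of 850 to 889 RPKM.

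Hsph1 (ENSMUSG00000029657, chr5:150416862-150438951, minus strand) encodes Hsp110, which resets Hsp70 by exchanging its nucleotide. It had 305, 319 and 353 CPM in E861A 6, 16 and 19, against 223, 341 and 271 CPM in wild type 2, 15 and 17. Wild type 15 lay among the E861A livers, and the log2 fold change was 0.23 (SE 0.19, edgeR adjusted p = 0.499, 95% interval -0.20 to 0.66). Dnajb1 (ENSMUSG00000005483, chr8:86132074-86135801, plus strand) encodes Hsp40, the partner that starts the Hsp70 cycle. It had 96.1, 86.8 and 82.6 CPM in E861A 6, 16 and 19, against 78.6, 115 and 103 CPM in wild type 2, 15 and 17. These groups overlapped as well, and the log2 fold change was -0.16 (SE 0.17, edgeR adjusted p = 0.614, 95% interval -0.55 to 0.23).

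The Hsph1 promoter is shown as that of a gene with a heat shock element core whose level did not pass the test. It lies at chr5:149636337-149636586 on the minus strand of GRCm38.p6, and capitals mark the core.
Hsph1: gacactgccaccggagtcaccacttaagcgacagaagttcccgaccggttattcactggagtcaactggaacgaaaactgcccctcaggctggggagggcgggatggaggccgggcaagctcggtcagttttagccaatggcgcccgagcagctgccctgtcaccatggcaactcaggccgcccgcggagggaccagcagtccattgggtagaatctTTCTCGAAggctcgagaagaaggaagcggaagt
Its core, TTCTCGAA, lies close to the start. Of the 2 windows held for Dnajb1, the second lies wholly past the annotated start that the first precedes. Neither held an exact core in either arrangement, and less exact or more distant elements were not searched.

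Per kilobase, both Hsp90 genes stood among the first 3 of the 9 genes in level. Hsp90ab1 (ENSMUSG00000023944, chr17:45704724-45710220, minus strand), the constitutive form, had 2931, 3379 and 3273 CPM in E861A 6, 16 and 19, against 2536, 3513 and 3204 CPM in wild type 2, 15 and 17. The highest and the lowest of the 6 values were both from wild-type livers, and the log2 fold change was 0.05 (SE 0.18, edgeR adjusted p = 0.899, 95% interval -0.35 to 0.46). Hsp90aa1 (ENSMUSG00000021270, chr12:111928815-111940938, minus strand), the form that stress induces, had 2207, 1450 and 1420 CPM in E861A 6, 16 and 19, against 1541, 2066 and 1684 CPM in wild type 2, 15 and 17. E861A 6 was the highest liver and the other two E861A livers were the lowest. The log2 fold change was -0.06 (SE 0.22, edgeR adjusted p = 0.907, 95% interval -0.57 to 0.45).

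The mitochondrial partners lie head to head on chromosome 1 and their annotated start regions overlap by 112 bases. Hspd1 (ENSMUSG00000025980, chr1:55134679-55145087, minus strand) encodes Hsp60, the barrel of the folding chamber. It had 1115, 877 and 769 CPM in E861A 6, 16 and 19, against 898, 1330 and 1175 CPM in wild type 2, 15 and 17. The groups overlapped, and the log2 fold change was -0.30 (SE 0.21, edgeR adjusted p = 0.415, 95% interval -0.79 to 0.19). Hspe1 (ENSMUSG00000073676, chr1:55144976-55148151, plus strand) encodes Hsp10, the lid. It had 475, 386 and 345 CPM in E861A 6, 16 and 19, against 249, 321 and 281 CPM in wild type 2, 15 and 17. Each E861A liver was above each wild-type liver, but the log2 fold change of 0.50 (SE 0.18, 95% interval 0.09 to 0.92) did not pass after adjustment (edgeR adjusted p = 0.112). Scaled by library totals only it did, at 0.57 (edgeR adjusted p = 0.0267), where the median of all tested genes was 0.10.

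The stretch between the partners is shown because it is the start region of both. The window of Hspe1 lies at chr1:55087898-55088147 on the plus strand of GRCm38.p6, and capitals mark overlapping heat shock element cores.
Hspe1: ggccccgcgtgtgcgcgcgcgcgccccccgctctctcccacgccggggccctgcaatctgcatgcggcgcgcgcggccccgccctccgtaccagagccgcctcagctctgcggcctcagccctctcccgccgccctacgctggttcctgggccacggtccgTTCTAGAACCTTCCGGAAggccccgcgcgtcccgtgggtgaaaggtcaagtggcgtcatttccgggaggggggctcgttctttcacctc
Cores in this window ran into each other and formed arrangements of 3 alternating units, GAA, TTC and GAA or TTC, GAA and TTC with NN between neighbours, which 0.466% of all promoter windows held. One of the 2 windows held for Hspd1 contains the same stretch read from the other strand. The windows of Hspa1a, Hspa1b, Hsph1 and Dnajb1 held 0 arrangements of 3 units. Of the 6 genes with a promoter window held, 5 had a core in at least 1 window, against 12.8% of all single promoter windows. Some of the genes had more than 1 window. The 5 are not independent, since Hspa1a and Hspa1b differed at 3 of 250 bases and Hspd1 and Hspe1 share a stretch. Hspa8, Hsp90aa1 and Hsp90ab1 had no entry and were not searched.

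Within single livers, the ratio of Hspe1 to Hspd1 per kilobase of exon was 0.763, 0.788 and 0.803 in E861A 6, 16 and 19, against 0.498, 0.432 and 0.428 in wild type 2, 15 and 17. The genotypes did not overlap, and the ratio was 1.74 times as high in E861A. The exact two-sided permutation test gave p = 0.10, the smallest that 3 against 3 livers allow, and 0.50 after Benjamini-Hochberg adjustment over 5 ratios chosen after the values were seen. The ratio of Hspa1b to Hspa1a was 2.35, 2.40 and 2.37 in E861A 6, 16 and 19, against 1.97, 4.44 and 4.56 in wild type 2, 15 and 17. It was nearly constant in E861A and overlapped with wild type (exact permutation p = 0.4, adjusted 0.667), and the shared sequence of the copies touches it. The ratios of Hsp90ab1 to Hsp90aa1, Hsph1 to Hspa8 and Dnajb1 to Hspa8 overlapped between genotypes as well, with exact permutation p of 0.8, 0.2 and 0.7.

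**Figure D3:**
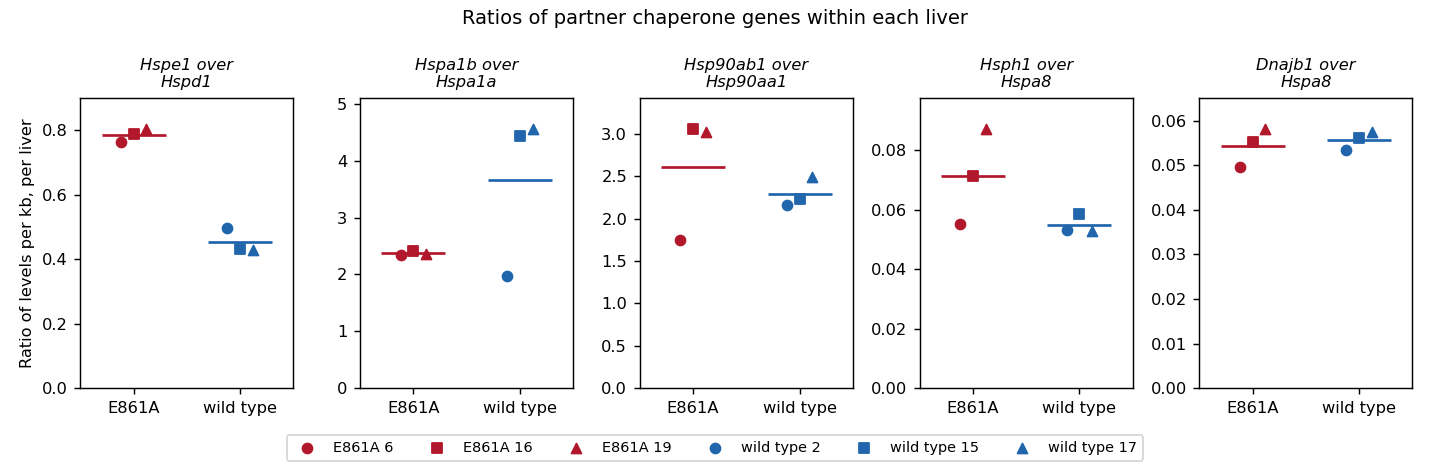
Ratio of levels per kilobase between partner genes in each liver, with E861A livers in red, wild-type livers in blue and a bar at each group mean. For Hspe1 over Hspd1 the E861A livers lie at 0.763 to 0.803 and the wild-type livers at 0.428 to 0.498, and in the other panels the genotypes overlap.

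By level per kilobase, the order in E861A was Hsp90ab1 at 1065 ± 78.1, Hspa8 at 665 ± 108, Hsp90aa1 at 431 ± 113, Hspd1 at 348 ± 67.0, Hspe1 at 273 ± 45.0, Hspa1b at 140 ± 61.3, Hspa1a at 58.7 ± 25.7, Hsph1 at 46.2 ± 3.49 and Dnajb1 at 35.8 ± 2.80 RPKM (SD, n = 3). In wild type the first 5 genes kept these places, at 1029 ± 167, 718 ± 117, 449 ± 69.0, 429 ± 82.8 and 192 ± 24.3. Dnajb1 followed there at 40.0 ± 7.48, then Hsph1 at 39.5 ± 8.43, Hspa1b at 10.7 ± 9.60 and Hspa1a at 2.53 ± 1.96. The ranges over livers of neighbours in this order overlapped for Hsp90aa1 and Hspd1 and for Hspa1b and Hspa1a in both genotypes. They also overlapped for Hspd1 and Hspe1 and for Hspa1a and Hsph1 in E861A, and for Dnajb1 and Hsph1 in wild type. By group mean, the last places thus held the inducible pair in wild type and the Hsp40 and Hsp110 genes in E861A. In E861A 6 the lowest gene was instead Hspa1a at 30.9 RPKM, against 38.9 for Dnajb1 and 43.3 for Hsph1. The places also depend on the merged exon lengths, of which that of Hsph1 was the longest at 7042 bases. The 9 genes together took 1.02 ± 0.05% of counted reads in E861A and 0.936 ± 0.05% in wild type (SD, n = 3 each). These groups overlapped, with E861A 16 at 0.979% and wild type 15 at 0.982%.

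Beyond the 9 genes, 82 tested genes of 8 chaperone lists gave 2 higher, 1 lower and a median log2 fold change of -0.03. Of all tested genes, 7.77% were called higher and 4.26% lower, with a median of 0.04. The same shares serve for the single lists that follow. Hspb8, a small heat shock protein that works with Bag3 in clearing misfolded proteins, had 9.43, 13.1 and 13.7 CPM in E861A 6, 16 and 19, against 3.82, 3.02 and 3.39 CPM in wild type 2, 15 and 17. Its groups did not overlap, and it rose by a log2 fold change of 1.82 (SE 0.23, edgeR adjusted p = 0.00242). Bag3, an exchange factor of Hsp70 and a known heat shock gene, had 27.8, 40.1 and 43.8 CPM in E861A 6, 16 and 19, against 21.0, 16.5 and 16.8 CPM in wild type 2, 15 and 17. It rose by 1.04 (SE 0.20, edgeR adjusted p = 0.0157), again with no overlap. Bag2, which inhibits the ubiquitin ligase CHIP on Hsp70, fell to 40.6 ± 6.09 CPM in E861A, against 65.0 ± 11.7 CPM in wild type (SD, n = 3 each, log2 fold change -0.68, SE 0.18, edgeR adjusted p = 0.0497). With sex as a covariate Bag3 and Bag2 lost their calls, at log2 fold changes of 0.83 and -0.37. Among male livers Hspb8 lost its call, at 1.67. Both fits set E861A against wild type 2 alone. Bag3 stayed past the threshold in 2, Bag2 in 1 and Hspb8 in 6 of the 6 fits that each left out a liver.

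In the single lists, the Bag and other Hsp70 regulators gave 1 higher and 1 lower of 9, Bag3 and Bag2. The small heat shock proteins gave 1 higher and 0 lower of 7 tested, with a median of 0.38. Among the other Hsp70 and Hsp110 genes 0 of 8 passed in either direction, with a median of -0.23. The smallest p in that list belonged to Hspa12b, a distant Hsp70 relative of endothelial cells, at a log2 fold change of -0.65 (edgeR adjusted p = 0.0654). Hspa12b was past the threshold with RLE scaling, no filter, 1 CPM in 3 libraries and without E861A 19 (edgeR adjusted p = 0.0395, 0.0373, 0.0485 and 0.0274), and by DESeq2 (adjusted p = 0.00772). The Hsp40 genes gave 0 of 10, the Hsp90 co-chaperones 0 of 18 and the TRiC and prefoldin genes, which fold actin and tubulin, 0 of 14. Their medians were -0.05, -0.02 and -0.08. The mitochondrial chaperones and proteases gave 0 of 13 with a median of 0.00. In these 4 lists the genes with the smallest p were Dnajc7, Cacybp, Pfdn2 and Afg3l2, at log2 fold changes of 0.24, -0.49, 0.32 and -0.47, none past the threshold. Cacybp passed without E861A 6 (edgeR adjusted p = 0.0435), and Afg3l2 passed without wild type 2 (edgeR adjusted p = 0.0294) and by DESeq2 (adjusted p = 0.0465).

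The heat shock factors gave 0 of 3 tested. Hsf1, the main activator of the heat shock genes, had 60.0 ± 7.24 CPM in E861A and 62.7 ± 7.01 CPM in wild type (SD, n = 3 each, log2 fold change -0.06, edgeR adjusted p = 0.851). Hsf2, a related factor, had 33.9, 27.7 and 28.0 CPM in E861A 6, 16 and 19, against 24.1, 19.8 and 19.4 CPM in wild type 2, 15 and 17. The groups of Hsf2 did not overlap, but its log2 fold change of 0.50 did not pass (edgeR adjusted p = 0.0776). It passed with the term for livers 2 and 6 and without wild type 2, at 0.50 and 0.60 (edgeR adjusted p = 0.0276 and 0.0413). The amount of HSF1 mRNA says nothing of the activity of the protein.

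**Figure D4:**
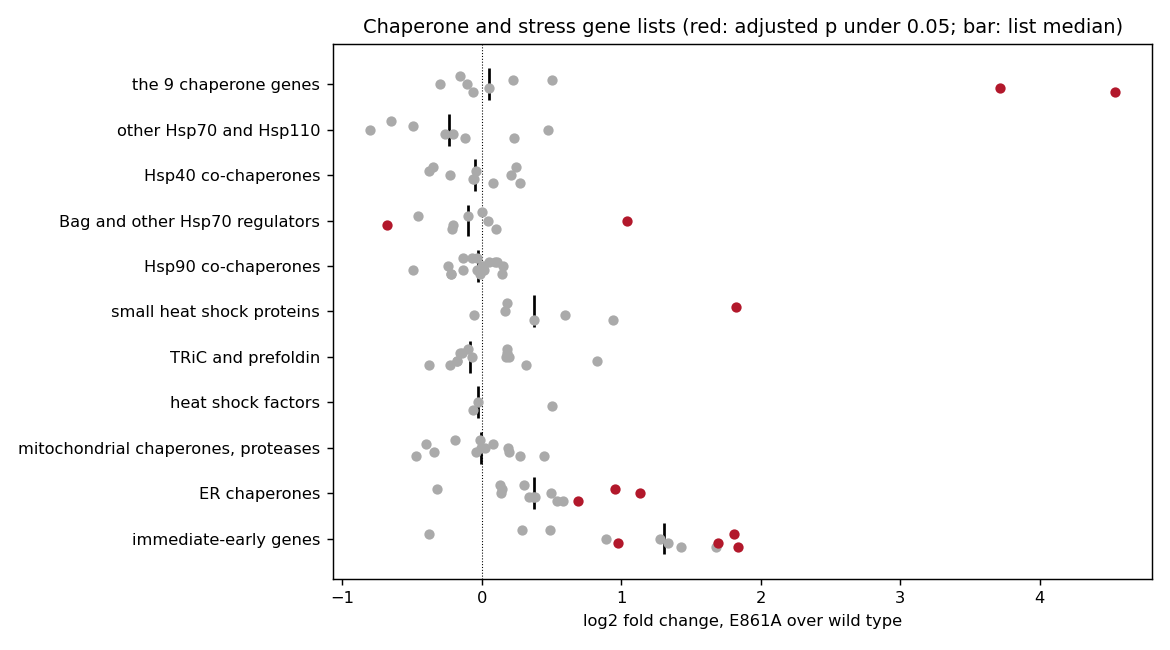
Log2 fold change, E861A over wild type, of each tested gene in the 9 genes and in each list, in red where the adjusted p was under 0.05, with a black bar at the list median. Hspa1a and Hspa1b lie far to the right of the other chaperones, whose medians run from -0.23 to 0.38, and the immediate-early list has a median of 1.31.

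Chaperones of the endoplasmic reticulum, which serve the secretory pathway and answer to other sensors, gave 3 higher and 0 lower of 14, with a median of 0.37. Of all tested genes 7.77% were called higher and 4.26% lower. The 3 higher genes were Dnajb9 at 1.14, Creld2 at 0.95 and Pdia4 at 0.69 on the log2 scale (edgeR adjusted p = 0.00691, 0.0354 and 0.0429). None of these 3 calls remained with sex as a covariate, where the edgeR adjusted p were 0.0865, 0.190 and 0.264. With 1 liver left out at a time, Dnajb9 stayed past the threshold in 6 of 6 fits, Creld2 in 1 and Pdia4 in 2.

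Immediate-early genes, which respond within minutes to growth factors, stress or tissue handling, were set beside the inducible Hsp70 pair. Their mean log2 CPM over 12 genes was 4.41, 5.81 and 5.56 in E861A 6, 16 and 19, against 3.11, 4.77 and 4.44 in wild type 2, 15 and 17. Livers 6 and 2 were again the lowest of their genotypes. In the test 4 of 12 were higher and 0 lower, against 7.77% called higher and 4.26% called lower among all tested genes. Egr1 was at a log2 fold change of 1.84, Junb at 1.81, Nr4a1 at 1.69 and Ier2 at 0.97 (edgeR adjusted p = 0.00243, 0.0145, 0.0121 and 0.0156). With 1 liver left out at a time, Egr1 stayed past the threshold in 6 of 6 fits and Junb, Nr4a1 and Ier2 in 4 each. Nr4a1 lost its call with sex as a covariate, at a log2 fold change of 1.46. Among male livers Nr4a1 and Ier2 lost theirs, at 1.48 and 1.38. Both fits set E861A against wild type 2 alone. Fos had 8.39, 127 and 107 CPM in E861A 6, 16 and 19, against 1.52, 45.8 and 28.4 CPM in wild type 2, 15 and 17. The Fos groups overlapped, and its edgeR adjusted p was 0.432. The livers had been dissociated before RNA was taken, and the part of that step in the Hspa1a and Hspa1b values was not tested.

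Some cell type markers changed as well, and their calls stand beside 7.77% of all tested genes called higher and 4.26% called lower. Summed over 10 genes, erythroid markers spanned 14710 to 15650 CPM in E861A and 18020 to 44210 CPM in wild type, and 3 of 10 were lower. Most of that sum came from Hbb-b1 and Hba-a1, at 15151 and 14895 CPM in wild type 15, and neither was called. The median log2 fold change of the 10 was -0.97. Hepatoblast markers spanned 20410 to 29800 CPM in E861A and 16570 to 20840 CPM in wild type, and 3 of 10 were higher. Most of this sum came from Alb and Afp, at 8256 and 13309 CPM in E861A 6, and neither was called. The median log2 fold change of these 10 was 0.59. Endothelial markers spanned 514 to 700 CPM in E861A and 438 to 553 CPM in wild type, with 4 of 10 higher and 1 lower. Macrophage markers spanned 299 to 446 CPM in E861A and 301 to 336 CPM in wild type, with 2 of 10 higher and 1 lower, and stem and progenitor markers 345 to 424 CPM in E861A and 310 to 389 CPM in wild type, with 2 of 10 higher. Mesenchymal markers (731 to 1788 CPM in E861A, 559 to 1975 CPM in wild type) and megakaryocyte markers (1010 to 1273 CPM in E861A, 592 to 1189 CPM in wild type) gave 0 calls. No marker was at 0 over the 6 livers. In bulk RNA, fewer cells of a type and less RNA per cell cannot be told apart, and the part of these cell types in the chaperone results was not tested.

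The profile nearest to Hspa1a plus Hspa1b over the 6 livers, by root mean square difference of centred log2 CPM, was that of the pseudogene Gm14557 at 0.618. Next came the pseudogenes 9130208D14Rik at 0.771 and Gm8995 at 0.780, the cytochrome oxidase subunit gene Cox6a2 at 0.791 and the chemokine gene Ccl4 at 0.830. Ccl4 had 8.46, 6.69 and 5.51 CPM in E861A 6, 16 and 19, against 0.207, 1.10 and 0.344 CPM in wild type 2, 15 and 17. Its E861A order was the reverse of that of the Hsp70 pair. Nearest to Hsph1 were Gm962 at 0.050, Cass4 at 0.053, D16Ertd472e at 0.060, 6230427J02Rik at 0.060 and Slc15a4 at 0.080.

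**Figure D5:**
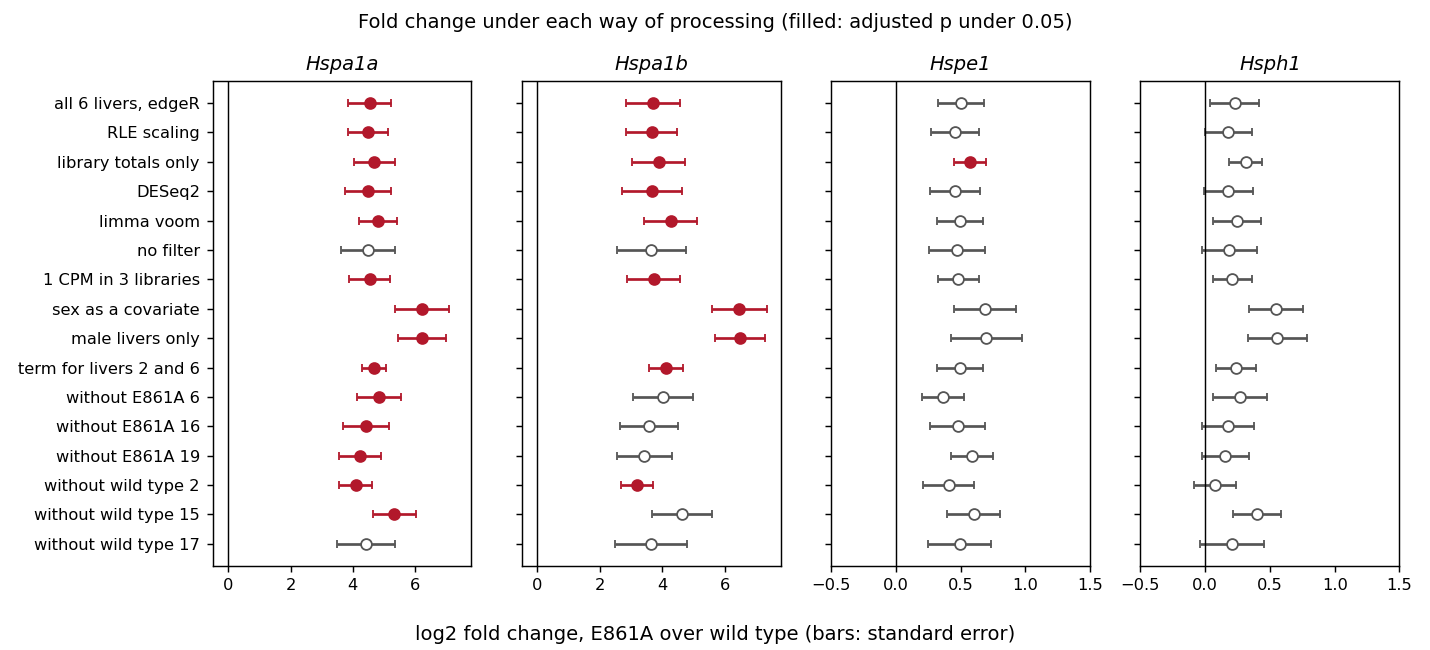
Log2 fold change of Hspa1a, Hspa1b, Hspe1 and Hsph1, E861A over wild type, under each way of processing, with bars of 1 standard error and filled points where the adjusted p was under 0.05. Hspa1a and Hspa1b lie above 3 in every row and the fits with sex and of male livers lie above 6, while Hspe1 is filled for library totals only and Hsph1 in none.

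RNA editing was looked up as a second readout of the same livers. Of the 6012 editing sites the authors listed, 0 lay in any of the 9 genes or within 5000 bases of one. No editing level could therefore be set beside the expression of these genes. How many of all counted genes hold or lie near a listed site was not counted, so the 0 is not read as a trait of these genes.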

How the data were processed

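Raw counts per Ensembl gene and library were used as the authors deposited them. The submitters' processing notes name the builds mm9 and NCBIM37 and, with no role or order, HTSeq, Cufflinks, BWA, SAMtools 0.1.19, limma, edgeR, Bowtie2 2.1.0.0, TopHat2 2.0.8 and Trimmomatic 0.30. The authors' deposited table holds log2 fold changes and p-values. The contrast named in its header is wild type over mutant, so the sign was turned here. The site table gives covering reads as counts and editing levels as a fraction, both as deposited by the authors.

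Under R 4.3.3, edgeR 4.0.16 was run with filterByExpr, TMM scaling and the robust quasi-likelihood test on all 16511 tested genes, with no covariate. CPM use TMM-scaled totals, and levels per kilobase use merged exons of GENCODE M1. DESeq2 1.42.0, limma voom 3.58.1, other scalings and filters, sex and single livers were alternatives. The code was tested on simulated data. The 9 genes, the lists and the rule for named genes (up to 4 genes per list by smallest p among those past 0.05, otherwise 1, and the 5 nearest profiles) were chosen with earlier results of these data known. Genes named beyond that rule (Fos, Hsf1, Hspa9, Spg7, Hbb-b1, Hba-a1, Alb and Afp) were chosen after their values were seen. The authors' normalised counts were not used.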

Additional observations from a re-analysis of the deposited data

How the results depend on the processing

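Hspa1a and Hspa1b stayed higher in E861A under all 15 alternatives, but not always past the threshold. With no filter on low counts the log2 fold changes were 4.48 for Hspa1a, 3.65 for Hspa1b and 3.86 for their sum, and 0 of the 9 genes were called, against 4.75% of 25744 genes then tested called higher. Leaving out 1 liver gave 4.10 to 5.33 for Hspa1a, 3.18 to 4.63 for Hspa1b, 3.41 to 4.80 for the sum, and 0 to 2 of the 9 genes called. The count of 0 came without wild type 17, where 3.23% of 17165 tested genes were called higher. Over the fits that each left out 1 liver, this share ran from 3.02% to 10.4%. The sum lost its call with no filter, without E861A 16 and without wild type 17 (edgeR adjusted p = 0.143, 0.0763 and 0.149).

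Hspe1 passed with library totals only, at 0.57. Genes near 0 changed sign. With library totals only Hsp90aa1 was at 0.013. With sex as a covariate Hspa8 was at 0.16, Dnajb1 at 0.17, Hsp90aa1 at 0.13 and Hspd1 at 0.035, and among male livers at 0.17, 0.18, 0.14 and 0.045 in the same order. Leaving out 1 liver gave -0.085 to 0.15 for Hsp90ab1, -0.30 to 0.070 for Hsp90aa1 and -0.25 to 0.0061 for Hspa8. The cause was not tested.

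Over all genes, 1283 were higher and 703 lower in E861A. Lower genes numbered 1538 by DESeq2 and 1160 with at least 1 CPM in 3 libraries. With sex as a covariate 530 were higher and 39 lower, and among male livers 301 and 8. Leaving out 1 liver gave 515 to 1737 higher and 95 to 1502 lower. Of the other chaperone genes, 1 was higher with sex as a covariate and 0 among male livers, against 2. Lower ones numbered 2 with RLE scaling, 5 by DESeq2, 3 with no filter, 3 with 1 CPM in 3 libraries, and 0 with limma voom, sex, male livers or the term for livers 2 and 6, against 1. Leaving out 1 liver gave 1 to 4 higher and 0 to 4 lower. No paired analysis was possible because no liver number occurs in both genotypes and no litter is given. The number of livers, 3 a genotype and of unequal sex, limits the precision. The editing comparison and its coverage alternative gave no value, as no site lay in these genes.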

Other observations

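Among the genes of the other lists, 10 held 20 of the 6012 listed editing sites, and 20 of the 20 were intronic. The intronic share of all 6012 sites was not counted, so this is not read as a trait of these genes. Spg7 held 6 of the 20 sites. Hspa9, the mitochondrial Hsp70, held 4 of them, with 66 to 108 covering reads in E861A and 39 to 63 in wild type, summed over 3 livers each.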
